A study of Homo sapiens with 9 samples.

Results

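The core machinery that forms the 3' ends of messenger RNAs was examined through 10 genes: the cleavage stimulation factor genes CSTF1, CSTF2, CSTF2T and CSTF3, the cleavage and polyadenylation specificity factor genes CPSF1, CPSF2, CPSF3 and CPSF4, NUDT21 of cleavage factor I and PCF11 of cleavage factor II. They were taken by symbol from a table of 25540 gene symbols, and all 10 were among the 10939 symbols with a mean of at least 1 TPM that were tested. CSTF3 was chosen by its TPM in knockdown against control libraries, where it passed a test over all genes, so its values in that contrast are given as a description; the other 9 were added as parts of the same machinery. RNA was sequenced from CAL-1, a BPDCN cell line (blastic plasmacytoid dendritic cell neoplasm, an aggressive blood cancer). KHSRP, an RNA-binding protein known for its role in the decay of AU-rich mRNAs, had been silenced by CRISPR interference in the groups KHSRPi#1 and KHSRPi#2, whose labelled genotype is KHSRP knockdown. The control group is labelled NTC, with the genotype WT, and each of the 3 groups has 3 libraries. The numbers in the knockdown names are taken here as 2 guides, which the labels do not state. Values are TPM, which divides reads by transcript length and scales every library to the same total, so levels of different genes can be compared.

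Most mRNAs are cut downstream of an AATAAA signal and given a poly(A) tail at the cut. CPSF recognises the signal through CPSF4 and its partner WDR33, CPSF1 is the scaffold of that module, and CPSF3 is the endonuclease, paired with its inactive relative CPSF2. CstF binds GU-rich sequence downstream of the cut: CSTF2 or its paralog CSTF2T contacts the RNA, CSTF3 is the scaffold that holds the complex together, and CSTF1 is a further subunit. NUDT21 recognises UGUA upstream of many sites, and PCF11 links cleavage to the end of transcription by RNA polymerase II. Levels of CSTF2, NUDT21 and PCF11 are known to influence which of several poly(A) sites a gene uses.

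These genes are themselves polyadenylated, and the last bases of their own transcripts carry the signal that their products act on. Of the 10 reference transcripts (GENCODE 29 on hg38), 7 had AATAAA within the last 40 bases, against 62.0% of the tested genes with a transcript. CPSF4 had the variant ATTAAA there, and CPSF1 and PCF11 had neither form. The 7 signals are shown 5' to 3' as DNA letters with 12 bases on each side, because they are the site of action of the complex; capitals mark AATAAA.
CSTF1: cgtgatttctgaAATAAActttatatacaa
CSTF2: tctgtgacttgaAATAAActttgaacacaa
CSTF3: agtcctttaaaaAATAAAaggattcagaaa
CSTF2T: tttcatgcagaaAATAAAgatacaattaag
CPSF2: tagcaattgtgaAATAAAcagattctgaag
CPSF3: tttgttacctaaAATAAAatgcattcgttt
NUDT21: tattgtcatttcAATAAAaaatatttgaaa
From the end of the capitals to the annotated end of the transcript there were 12 bases in CSTF2, 14 in CSTF3 and 22 in CSTF1 and CPSF3, with the other signals between these. TPM per gene does not say which poly(A) site was used in any library.

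KHSRP itself was between 33.7 and 36.5 TPM in the 6 knockdown libraries and between 216 and 253 TPM in the 3 NTC libraries. Of 10 markers of plasmacytoid dendritic cells, IL3RA was listed at 0 in all 9 libraries and the mean of LILRA4 was below the filter. The counting tool is not stated, so a listed 0 need not mean that IL3RA mRNA was absent. The 10 markers summed to between 3820 and 4360 TPM in knockdown libraries and to between 3690 and 4210 TPM in NTC libraries. None of the 8 tested was called for knockdown against NTC. Only 0.0823% of all tested genes were, so this does not show that the markers were unchanged. With a term for replicate 3, which called 1.76% of all tested genes, 3 markers rose. They were GZMB (log2 fold change 0.99, limma adjusted p = 8.56e-08), CLEC4C (0.36, 0.00497) and TCL1A (0.17, 0.0275). The part of these markers in the differences of the 3' end genes was not tested. Among markers of other blood cells, LYZ was between 36.6 and 90.8 TPM, CD3D, HBA1 and PPBP were at 0 in all 9 libraries, and CD14, CD3E, MS4A1, HBB and MPO stayed at or under 0.164 TPM. On the leading principal component, replicate 3 was far from replicates 1 and 2 in all 3 groups; it held 38.3% of the variance over tested genes. Results are therefore also given with a term for those libraries where that changes a call. The labels give 1 shared batch and do not say whether replicates were separate cultures, so the spread behind every p-value is that between these libraries and may be technical. TPM keeps no read totals, the depth in reads is unknown, and precision rests on the replicates.

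CSTF3 mRNA was lower in every knockdown library than in every control library. It was at 63.9, 63.8 and 66.9 TPM in KHSRPi#1, at 67.6, 64.7 and 67.2 TPM in KHSRPi#2, and at 81.1, 84.3 and 85.6 TPM in NTC. The highest knockdown library lay below the lowest NTC library, and the 2 guides overlapped each other. The knockdown mean was 65.7 ± 1.74 TPM (SD, n = 6), which is 78.5% of the NTC mean of 83.7 ± 2.29 TPM (SD, n = 3). Bulk RNA cannot tell fewer cells with a transcript from less of it in each cell. Among the members, CSTF3 alone had its 6 knockdown libraries beyond all 3 NTC libraries, a pattern shown by 4.67% of all tested genes.

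The fit that put CSTF3 among the called genes was limma on log2(TPM + 1), with Benjamini-Hochberg adjustment over all 10939 genes. For the mean of the guides against NTC, CSTF3 had -0.34 as its log2 fold change (SE 0.04, adjusted p = 0.0174), the fifth smallest p of all genes. CSTF3 was the only member called, and 0.0823% of all tested genes were called. The contrast used to choose CSTF3 had CD1E (adjusted p = 0.0277), FCER1A (0.0304) and CD1B (0.044) just inside the threshold of 0.05, and OPN3 (0.0685), ATP5G1 (0.07) and SWI5 (0.0736) just outside it. For KHSRPi#1 the log2 difference was -0.36 (adjusted p = 0.0336), where 0.0548% of genes were called, and for KHSRPi#2 it was -0.33 (adjusted p = 0.0617), again with 0.0548% of genes called. The size of the difference hardly moved when any library was left out, with log2 values from -0.37 to -0.33. Its adjusted p for the mean of the guides stayed under 0.05 only without NTC replicate 1 (0.0481) or without KHSRPi#1 replicate 3 (0.0331), and ran from 0.0527 to 0.113 without any of the other 7 libraries. In KHSRPi#1 alone no fit with a library left out kept the call (0.0766 to 0.304). With the replicate 3 term, which called 1.76% of all tested genes, the adjusted p of CSTF3 was 0.000639 for the mean of the guides, 0.00275 for KHSRPi#1 and 0.00384 for KHSRPi#2.

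**Figure D1:**
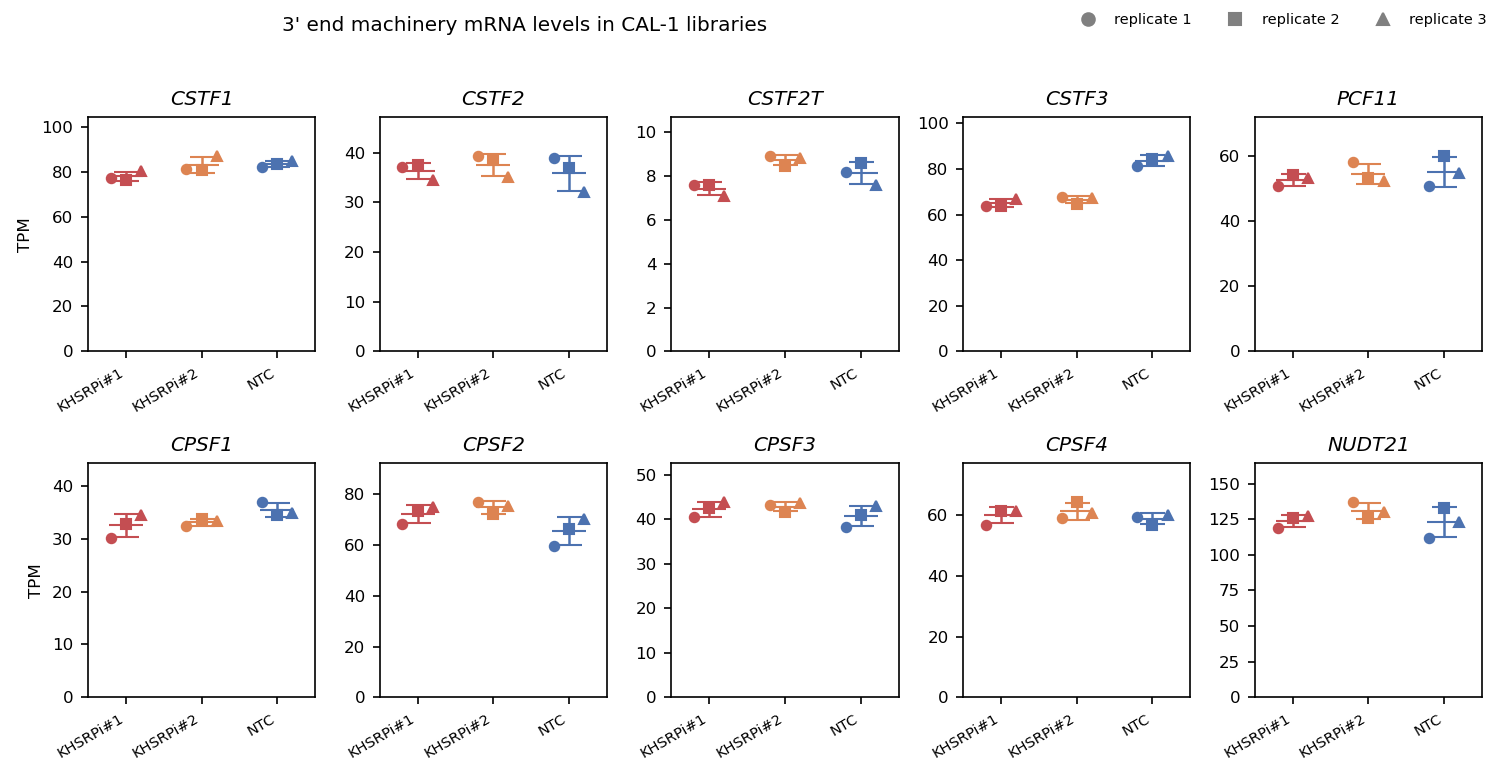
TPM of the 10 genes in each library (points, shaped by replicate), with the mean and SD of 3 libraries per group; KHSRPi#1, KHSRPi#2 and NTC run from left to right and each axis starts at 0. The CSTF3 points of both knockdown groups lie between 63.8 and 67.6 TPM and those of NTC between 81.1 and 85.6 TPM, while the knockdown and NTC points of every other gene overlap.

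The partners of CSTF3 within CstF did not pass the test against NTC. CSTF1 was at 77.3, 76.4 and 80.2 TPM in KHSRPi#1, at 81.4, 80.6 and 86.9 TPM in KHSRPi#2, and at 82.1, 83.6 and 84.9 TPM in NTC. Of the knockdown libraries, 5 lay below the lowest NTC library and KHSRPi#2 replicate 3 lay above the highest. The CSTF1 log2 fold change for the mean of the guides was -0.05 (95% interval -0.15 to 0.04, limma adjusted p = 0.790). A two-sided exact permutation test of TPM (6 against 3 libraries, 84 divisions) gave p = 0.214 for CSTF1, and p = 0.0476 after median-ratio rescaling of the libraries.

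CSTF2, the RNA-contacting subunit, was at 37.1, 37.5 and 34.5 TPM in KHSRPi#1, at 39.3, 38.5 and 35.1 TPM in KHSRPi#2, and at 38.9, 36.9 and 32.1 TPM in NTC. Groups overlapped throughout, and in each of them replicate 3 was lowest. Its log2 fold change was 0.04 (95% interval -0.11 to 0.20, limma adjusted p = 0.907). The paralog CSTF2T, whose single-exon gene lies on chromosome 10 (51695487 to 51699591, minus strand), was at 7.57, 7.61 and 7.08 TPM in KHSRPi#1, at 8.90, 8.47 and 8.81 TPM in KHSRPi#2, and at 8.17, 8.61 and 7.60 TPM in NTC. Its guides lay on opposite sides of the NTC mean of 8.13 TPM, and the mean over both was -0.01 (95% interval -0.15 to 0.13, adjusted p = 0.975). CSTF2T and CSTF2 are close in sequence, and the sources used here do not give the counting tool, so reads shared between them make the split of the pair uncertain.

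In the CPSF group the nuclease partner CPSF2 had the largest positive difference of the 10 members, without passing the test over all genes. CPSF2 was at 68.3, 73.6 and 74.8 TPM in KHSRPi#1, at 76.9, 72.2 and 75.2 TPM in KHSRPi#2, and at 59.5, 66.4 and 70.3 TPM in NTC. Of the 6 knockdown libraries, 5 lay above the highest NTC library, and KHSRPi#1 replicate 1 lay within the NTC range. The log2 fold change was 0.17 (95% interval 0.04 to 0.30, limma adjusted p = 0.528, or 0.102 with the replicate 3 term). The exact permutation p was 0.0476, and 0.0238 after median-ratio rescaling, when the groups no longer overlapped.

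CPSF1, the scaffold of the signal-recognition module, is encoded on chromosome 8 (144393229 to 144409349, minus strand). It was at 30.1, 32.8 and 34.5 TPM in KHSRPi#1, at 32.4, 33.7 and 33.3 TPM in KHSRPi#2, and at 36.9, 34.5 and 34.8 TPM in NTC. Here 5 knockdown libraries lay below the lowest NTC library, and KHSRPi#1 replicate 3 reached the NTC range. The log2 fold change was -0.11 (95% interval -0.23 to 0.01, limma adjusted p = 0.664, or 0.280 with the replicate 3 term). Its exact permutation p was 0.0476, and 0.0238 after rescaling, again with groups that no longer overlapped. Before rescaling, 4.67% of all tested genes had groups that did not overlap. That share was not worked out after rescaling, so the separation of CPSF1 and CPSF2 there is only a description. CPSF1 and CPSF2 were the only genes of the 9 tested in this way with a p under 0.05 before rescaling, and these permutation p-values are not adjusted for the 9 tests.

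The nuclease CPSF3 was at 40.4, 42.5 and 43.8 TPM in KHSRPi#1, at 43.2, 41.6 and 43.7 TPM in KHSRPi#2, and at 38.3, 41.0 and 42.9 TPM in NTC, and its log2 fold change was 0.06 (95% interval -0.05 to 0.18, limma adjusted p = 0.807). The zinc finger protein CPSF4 ranged from 56.9 to 64.4 TPM in knockdown libraries and from 56.9 to 60.3 TPM in NTC libraries, with a log2 fold change of 0.04 (95% interval -0.07 to 0.15, adjusted p = 0.874). Both genes had overlapping groups, with exact permutation p-values of 0.190 for CPSF3 and 0.310 for CPSF4.

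NUDT21, the UGUA reader and the most abundant of the 10 in every group, was at 119, 126 and 127 TPM in KHSRPi#1, at 137, 126 and 130 TPM in KHSRPi#2, and at 112, 133 and 123 TPM in NTC. The NTC libraries alone spanned most of that range. Its log2 fold change was 0.05 (95% interval -0.07 to 0.18, limma adjusted p = 0.851). PCF11, the termination factor, ranged from 50.7 to 58.1 TPM in knockdown libraries and from 50.9 to 60.0 TPM in NTC libraries, with a log2 fold change of -0.04 (95% interval -0.17 to 0.10, adjusted p = 0.913). Over the 10 genes, 5 had a positive and 5 a negative log2 fold change, and the median of 0.015 lay beside 0.018 over all tested genes. Apart from CSTF3 the members ranged from -0.11 to 0.17, with adjusted p from 0.528 to 0.975. Such values do not show that these genes were unaffected: each interval above reaches beyond 0.1 on the log2 scale in at least 1 direction.

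**Figure D2:**
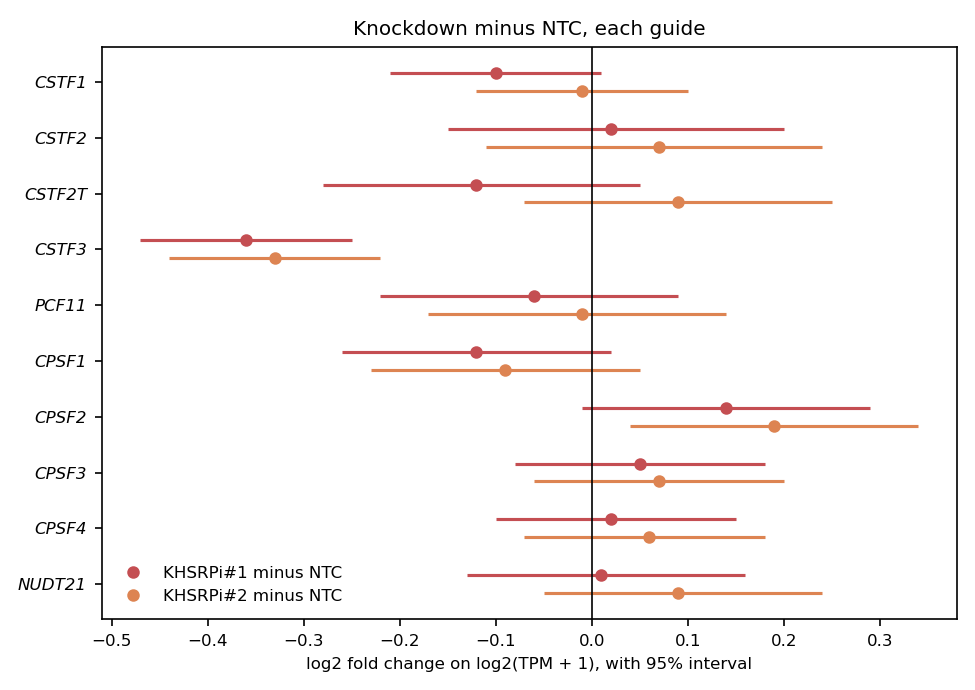
Log2 fold change on log2(TPM + 1) of each gene for KHSRPi#1 minus NTC and KHSRPi#2 minus NTC, with limma 95% intervals; both contrasts share the 3 NTC libraries. CSTF3 lies at -0.36 for KHSRPi#1 and -0.33 for KHSRPi#2, and the intervals of the other genes include 0 except that of CPSF2 for KHSRPi#2, which runs from 0.04 to 0.34.

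Ratios between members within a library do not depend on how the library was scaled. The ratio of CSTF3 to its partner CSTF1 was 0.826, 0.835 and 0.835 in KHSRPi#1, 0.830, 0.802 and 0.773 in KHSRPi#2, and 0.987, 1.01 and 1.01 in NTC. The transcripts were thus close to equal in TPM in control libraries, and CSTF3 was the lower in every knockdown library. The ratio of CPSF1 to CPSF2 was 0.441, 0.445 and 0.462 in KHSRPi#1, 0.422, 0.467 and 0.442 in KHSRPi#2, and 0.620, 0.520 and 0.495 in NTC. All 6 knockdown values lay below all 3 NTC values. The ratio of CPSF2 to CPSF3, the nuclease pair, was between 1.69 and 1.78 in knockdown libraries and between 1.55 and 1.64 in NTC libraries, again without overlap. These ratios were chosen after the values of the genes had been seen, so they carry no test. The 10 genes together summed to between 551.2 and 603.8 TPM in knockdown libraries and to between 567.8 and 605.0 TPM in NTC libraries.

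**Figure D3:**
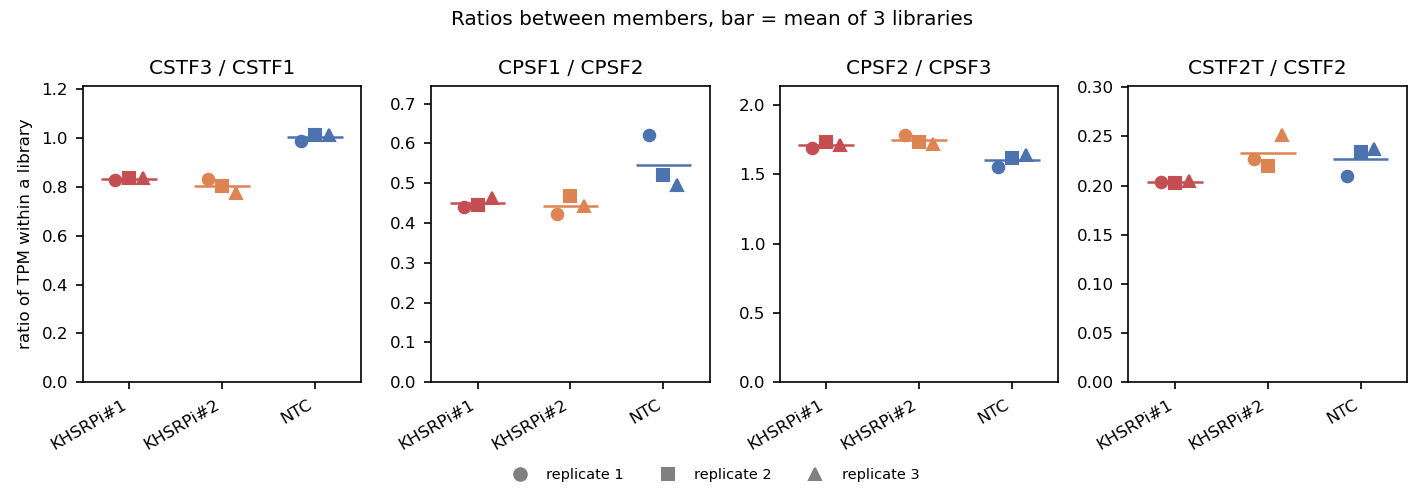
Ratios of TPM between members within each library (points, shaped by replicate), with the mean of 3 libraries as a bar; KHSRPi#1, KHSRPi#2 and NTC run from left to right and axes start at 0. CSTF3 to CSTF1 and CPSF1 to CPSF2 are lower, and CPSF2 to CPSF3 higher, in all knockdown libraries than in any NTC library, while CSTF2T to CSTF2 is between 0.203 and 0.205 in KHSRPi#1 and overlaps between KHSRPi#2 and NTC.

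The difference between the guides did not enter the choice of CSTF3, and its estimate uses no control library. Its interval and p rest on the spread within all 3 groups, NTC included. That spread also entered the test that chose CSTF3. CSTF3 differed by 0.03 on the log2 scale (KHSRPi#2 minus KHSRPi#1, 95% interval -0.07 to 0.14, limma adjusted p = 1.0). CSTF2T had the largest difference of the members, 0.21 (95% interval 0.05 to 0.37, limma adjusted p = 1.0). Its 3 KHSRPi#2 libraries all lay above its 3 KHSRPi#1 libraries, where an exact permutation test cannot give less than the 0.1 it gave. The only other member with this pattern was CSTF1, with a log2 difference of 0.09 (95% interval -0.02 to 0.20, adjusted p = 1.0), and 4.46% of all tested genes had it. No member and no other gene was called by limma between the guides (0.0% of genes), while 115 genes, CSTF2T alone among the members, had an unadjusted p under 0.05. All 10 members had a positive difference, with a median of 0.047 against 0.026 over all genes; after median-ratio rescaling or quantile normalization 9 were positive, with CPSF3 at -0.01. CSTF2T made up 17.0%, 16.9% and 17.0% of the summed TPM of CSTF2 and CSTF2T in KHSRPi#1, 18.5%, 18.0% and 20.1% in KHSRPi#2, and 17.4%, 18.9% and 19.2% in NTC.

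Of the 10 genes, only CSTF2 passed the test of replicate 3 against replicates 1 and 2, a contrast balanced over the groups. CSTF2 was 33.9 ± 1.60 TPM in the 3 replicate 3 libraries and 38.0 ± 1.01 TPM in the 6 libraries of replicates 1 and 2 (SD). The log2 difference was -0.16 (SE 0.04, limma adjusted p = 0.0115). Within groups, replicate 3 differed from the mean of the other libraries by -7.43% of TPM in KHSRPi#1, by -9.87% in KHSRPi#2 and by -15.4% in NTC. This call of 1 in 10 members stands beside 30.3% of all tested genes called in this contrast. Without NTC replicate 3 the adjusted p of CSTF2 was 0.124, and without KHSRPi#2 replicate 3 it was 0.056. CSTF1 and CPSF3 were highest in replicate 3 of each group, with log2 differences of 0.06 (adjusted p = 0.156) and 0.08 (adjusted p = 0.178), and CSTF2 was lowest in each; 42.6% of all tested genes had replicate 3 as the lowest or the highest library of every group. CSTF3 was 0.05 higher in replicate 3 (limma adjusted p = 0.340). The fit that chose CSTF3 had no replicate term and counted such differences as spread. A small value was therefore favoured by the choice and is not an independent result. Cell type markers moved with the same split: LYZ was 38.4 ± 2.82 TPM in replicate 3 and 73.9 ± 11.0 TPM in replicates 1 and 2 (limma adjusted p = 3.01e-05), and GZMB averaged 46.9 TPM in replicate 3 and 80.6 TPM in replicates 1 and 2 (log2 difference -0.75, adjusted p = 9.86e-07). Of the 8 tested plasmacytoid dendritic cell markers, 2 rose and 4 fell in replicate 3, and the summed level of the 10 was between 4210 and 4360 TPM in replicate 3 and between 3690 and 4210 TPM in the other libraries. Their part in the CSTF2 difference was not tested. The labels do not say how replicate 3 differed from the others.

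**Figure D4:**
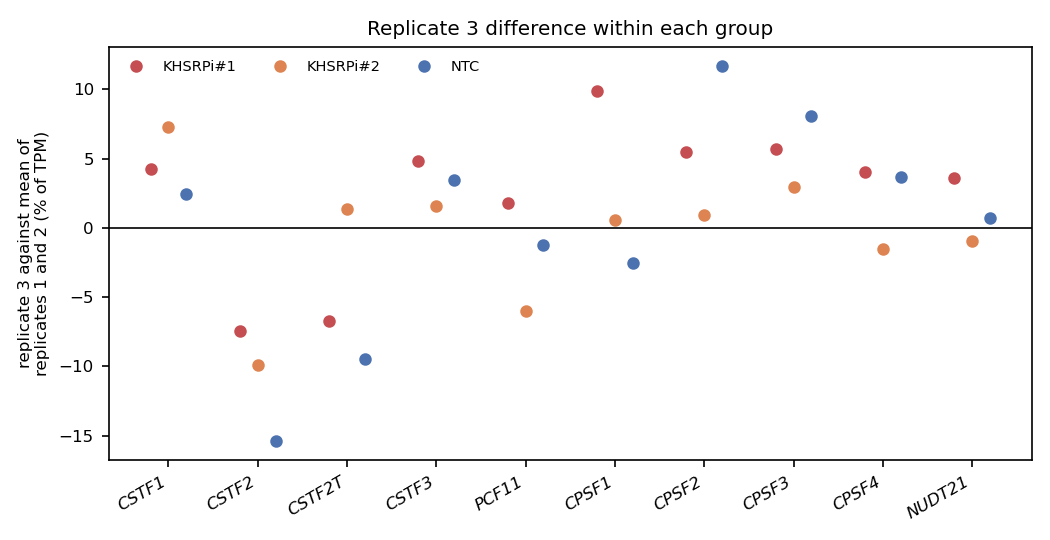
Difference of the replicate 3 library from the mean of replicates 1 and 2 of the same group, in percent of TPM, for each gene and group. CSTF2 is below 0 in all 3 groups (-7.43%, -9.87% and -15.4%), and CSTF1, CSTF3, CPSF2 and CPSF3 are above 0 in all 3.

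By level per length, the members kept the same order in both knockdown groups: NUDT21, CSTF1, CPSF2, CSTF3, CPSF4, PCF11, CPSF3, CSTF2, CPSF1 and CSTF2T. In NTC, CSTF3 stood in the second place beside CSTF1, with means of 83.7 and 83.6 TPM and overlapping ranges, and the order of the other genes was the same. Neighbours in the order overlapped in range only for CSTF2 with CPSF1 in KHSRPi#1, and for no pair in KHSRPi#2. In NTC the ranges overlapped for CPSF2 with CPSF4, CPSF4 with PCF11, CPSF3 with CSTF2 and CSTF2 with CPSF1 as well. NUDT21 lay above 89.1% of tested genes by mean TPM and CSTF3 above 80.4%, while CSTF2T lay above 26.7%.

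The genes whose log2(TPM + 1) followed that of CSTF3 most closely over the 9 libraries were KHSRP (Pearson r = 0.976), CCND1 (0.975), OPN3 (0.972), PSPC1 (0.961) and SRSF4 (0.952). All 5 were lower in knockdown than in NTC libraries, as CSTF3 was, for example PSPC1 at 42.7 ± 1.77 TPM in knockdown and 59.3 ± 4.68 TPM in NTC (SD, n = 6 and 3), and SRSF4 at 102 ± 3.19 TPM in knockdown and 117 ± 3.49 TPM in NTC. These r describe a split of the libraries into 2 clusters and are not evidence of a graded relation. Of the other members, CPSF1 (0.687) and CSTF1 (0.586) had the highest r with CSTF3, and CPSF2 (-0.61) the lowest. When deviations from group means were used instead, so that the split no longer counted, the leading genes included STK3 (0.992), ACADM (0.991), CHD2 (0.99) and TTF2 (0.989). On that measure CPSF3 (0.884, rank 675) and CPSF2 (0.834, rank 1260) were the members most like CSTF3, and CSTF2 (-0.702, rank 10415) the least. Ranks are among all other tested genes, so many genes followed CSTF3 more closely than any member did. These deviations still hold the replicate 3 difference, with correlations of 0.62 to 0.63 between the replicate 3 libraries of the groups. Both measures are over 9 libraries and carry no p.

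CSTF3 is encoded on the minus strand of chromosome 11 (33077188 to 33162371, hg38). Its reference transcript CSTF3-201 has 21 exons and a 3' UTR of 503 bases. KHSRP is known for binding AU-rich elements, so the AU-rich pentamer ATTTA was counted in each 3' UTR. CSTF3 has a single copy, at base 424 of the UTR, shown here with its surroundings because it is the letters of that known class in this transcript; capitals mark ATTTA.
CSTF3 UTR: ttgtttgtttttATTTAtggcagaatgtat
At least 1 ATTTA was in the 3' UTR of 70.5% of the tested genes with an annotated 3' UTR. CPSF2 had 27 copies in 10401 bases of UTR and NUDT21 had 9 in 3579, whereas CSTF2, CPSF3 and CPSF1 had none in UTRs of 208, 84 and 87 bases. Per kilobase the median over the tested genes with an annotated 3' UTR was 1.67. Above it lay CSTF3 at 1.99, CPSF2 at 2.60, NUDT21 at 2.51, PCF11 at 2.35 and CSTF2T at 2.26. Below it lay CSTF1 at 1.51, CPSF4 at 1.15, and CSTF2, CPSF3 and CPSF1 at 0.0. Annotated CSTF3 transcripts also include short protein-coding forms with 2 and 3 exons, whose last 40 bases hold no AATAAA. A gene-level TPM adds all forms together, so a change in their proportions cannot be told apart from a change in the whole gene.

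The CSTF3 start region is shared with a divergent noncoding gene. CSTF3-DT, listed in the data under the older symbol CSTF3-AS1, runs on the plus strand (33161657 to 33191598) and overlaps the CSTF3 annotation by 715 bases. Of the annotated CSTF3 transcripts, only CSTF3-205, which extends to 33162371, reaches into CSTF3-DT. The reference transcript CSTF3-201 extends to 33161465 and does not. The level of CSTF3-DT was 0.545, 0.647 and 0.751 TPM in KHSRPi#1 and 0.945, 0.915 and 0.902 TPM in KHSRPi#2. In NTC it was 0.689, 0.980 and 0.962 TPM. The knockdown and NTC libraries overlapped, and its mean was below the filter, so it was not tested. The sources used here do not say whether counting used strand, and reads of the overlapping bases could belong to either gene. The promoter of CSTF3 is printed because CSTF3 is the member on which the comparison turns (RefSeq, GRCh38.p14, chr11:33161431-33161730, minus strand, 250 bases before to 50 after the start). Capitals mark TGACGTCA, the letters of a cAMP response element, and CCGGAAG, the letters of an ETS-type element.
CSTF3 promoter: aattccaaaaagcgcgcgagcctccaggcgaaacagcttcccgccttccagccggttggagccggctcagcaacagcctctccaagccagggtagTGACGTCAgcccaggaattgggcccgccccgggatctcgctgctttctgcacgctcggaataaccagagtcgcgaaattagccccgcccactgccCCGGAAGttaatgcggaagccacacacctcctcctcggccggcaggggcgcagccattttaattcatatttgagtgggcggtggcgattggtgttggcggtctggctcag
The CSTF3-DT start falls at base 74 of this window, TGACGTCA begins at base 96 and CCGGAAG at base 191. Searched on both strands, TGACGTCA was in the promoters of 2 of the 9 members with a promoter in the table (CSTF1 and CSTF3) and of 4.0% of 8336 tested genes. CCGGAAG was in 5 of 9 (CSTF1, CSTF2, CSTF3, CPSF3 and NUDT21) and in 24.6% of tested genes, and GCCAAT was in 4 of 9 and in 23.9%. TATAAA and CGCATGCG were in none of the 9, and in 7.7% and 5.1% of tested genes. A match is a description of letters and not of binding.

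The rest of the pathway was followed in 5 lists with 67 genes, of which 64 were tested. None passed limma's adjusted threshold for the mean of the guides against NTC. Only 0.0823% of all tested genes passed it, so the absence of calls does not show that the lists were unaffected. The highest log2 fold change among the 64 was 0.17. Among 16 other cleavage and polyadenylation factors, 8 were positive and 8 negative, with a median of -0.002 beside 0.018 for all genes. SSU72, a phosphatase of the polymerase tail, was at 180 ± 3.93 TPM in knockdown and 170 ± 1.57 TPM in NTC libraries (log2 fold change 0.08, adjusted p = 0.630). Its groups did not overlap, as was so for 3 of the 64 listed genes (4.69%), against 4.67% of all tested genes. SCAF4, an anti-terminator, was at 41.3 ± 1.48 TPM in knockdown and 44.6 ± 2.25 TPM in NTC libraries (-0.11, adjusted p = 0.636), and XRN2, the exonuclease that helps end transcription, and PPP1CB, a phosphatase subunit, had adjusted p of 0.724 each.

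Of the 7 histone mRNA 3' end factors, 6 were positive, with a median of 0.043. The median of all tested genes was 0.018, or -0.002 after median-ratio rescaling. The share of all tested genes with a positive value was not worked out, so sign counts of the lists are descriptions. The exonuclease ERI1 was at 15.3 ± 0.754 TPM in knockdown and 14.3 ± 1.14 TPM in NTC libraries (log2 fold change 0.09, adjusted p = 0.755), and CASP8AP2, ZNF473 and the stem-loop binding protein SLBP had adjusted p of 0.774, 0.817 and 0.914. Integrator cleaves small nuclear RNAs through INTS11, a relative of CPSF3; 17 of its 18 listed genes were in the table, 13 were positive and the median was 0.027. INTS2 had the largest value, at 36.0 ± 2.15 TPM in knockdown and 31.9 ± 3.69 TPM in NTC libraries (0.17, adjusted p = 0.621), and INTS10, INTS7 and INTS12 lay between 0.04 and 0.07. Of 8 poly(A) tail binding proteins and partners, 5 were positive, with a median of 0.041. PAIP1, a partner of poly(A) binding protein, was at 91.3 ± 2.92 TPM in knockdown and 83.4 ± 4.15 TPM in NTC libraries (0.13, adjusted p = 0.543), LARP4 had the same log2 fold change with an adjusted p of 0.703, and PABPC4 and PABPC1 lay at 0.06 and -0.02.

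RNA-binding proteins known to influence poly(A) site use were the list with the most negative values, 10 of 16 tested, with a median of -0.042. U2AF2, which binds the splice site polypyrimidine tract, was at 231 ± 10.7 TPM in knockdown and 261 ± 17.9 TPM in NTC libraries (log2 fold change -0.18, limma adjusted p = 0.453). The U1 small nuclear ribonucleoprotein subunits SNRNP70 and SNRPA, whose particle is known to suppress premature cleavage, were the other listed genes whose groups did not overlap, with all knockdown libraries below all NTC libraries. SNRNP70 ranged from 218 to 237 TPM in knockdown and from 239 to 251 TPM in NTC libraries (-0.12, adjusted p = 0.512), and SNRPA from 175 to 186 TPM in knockdown and from 191 to 200 TPM in NTC libraries (-0.11, adjusted p = 0.516). With the replicate 3 term U2AF2 fell (adjusted p = 0.0414). HNRNPH2 and CPEB1 were below the filter.

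**Figure D5:**
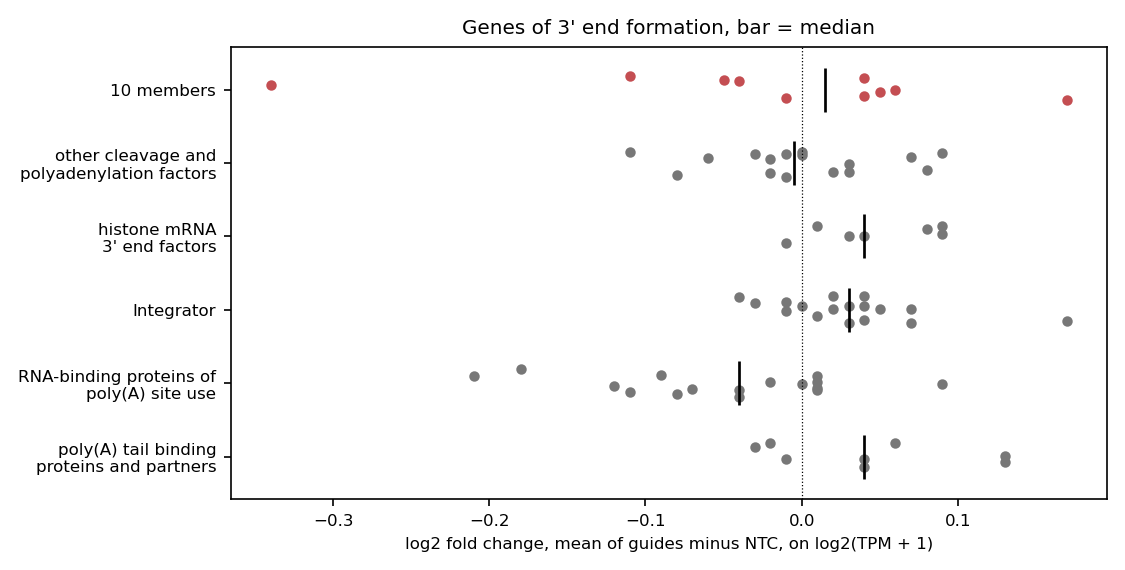
Log2 fold change of the mean of the guides minus NTC for the 10 members and for the tested genes of 5 further lists, 1 point per gene, with the median as a bar; height within a row is only spread for legibility. CSTF3 is the point at -0.34, and no gene of the other lists lies as low.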

How the data were processed

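For 9 libraries of total RNA, the authors deposited TPM by gene symbol in 1 table. Per the submitters' processing notes the build was hg38; the table's name holds the word STAR, an aligner, and its version, the counting tool, annotation and use of strand are not stated in the sources. Symbols with a mean of at least 1 TPM (10939) were tested on log2(TPM + 1) by a two-sided test in limma 3.58.1 (R 4.3.3, 1 fit of 3 groups, eBayes with a trend), adjusted by Benjamini-Hochberg over all of them; this scale understates changes of low genes. The fit was tested on simulated data with independent errors in each library, so without a shift shared by the replicate 3 libraries. Exact permutation tests used scipy 1.17.1. Transcripts are from GENCODE 29 (matched for 89.6% of tested genes) and promoters from RefSeq. Genes named are KHSRP, the 10 members, up to 4 per list with the smallest p, and the 5 most like CSTF3 on each of 2 measures; threshold neighbours and markers are also named, and some genes these rules take are not reported here. The members and lists were chosen with earlier results of these data known. Alternatives were pseudocounts of 0.1 and 5, other filters, rescaling, quantile normalization, a replicate block, a replicate 3 term and leaving out each library.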

Additional observations from a re-analysis of the deposited data

Results flagged for a closer look

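CSTF2T differed between the guides by 0.21 on the log2 scale (KHSRPi#2 minus KHSRPi#1). It drew attention because its 3 KHSRPi#1 libraries (7.08 to 7.61 TPM) all lay below the NTC mean of 8.13 TPM and its 3 KHSRPi#2 libraries (8.47 to 8.90 TPM) all lay above it. The limma test of the difference gave an adjusted p of 1.0 (CSTF2T passed 0.05 only before adjustment), and over the alternatives the log2 difference ran from 0.14 to 0.23 with an adjusted p of at least 0.964. The exact permutation p of 3 against 3 libraries was 0.1, the smallest that design can give.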

How the results depend on the processing

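With a replicate block the counts of called genes were 152 for the mean of the guides, 54 for KHSRPi#1, 91 for KHSRPi#2 and 1 between the guides; with a replicate 3 term the counts against NTC were 192, 74 and 88, set beside 9, 6 and 6 without either. The labels do not tie same-numbered libraries together, and the data give no clear pairing. Correlations of same-numbered deviations from group means were 0.04 to 0.32 for replicate 1 and 0.21 to 0.23 for replicate 2. For replicate 3 they were 0.62 to 0.63. All 9 were positive, 1 was under 0.1, and 3 of 9 libraries were most like those of their own number. Deviations from a group mean cancel within the group, so the replicate 3 difference also enters those of replicates 1 and 2. Positive values for replicates 1 and 2 therefore do not show pairing. Between the guides the count was 1 without a filter and 1 with replicates 1 and 2 alone, against 0. With replicates 1 and 2 alone, 0 members were called for the mean of the guides (CSTF3 adjusted p = 0.0527). Leaving out a library gave 3 to 7 called genes for the mean of the guides, 2 to 4 for KHSRPi#1, 3 to 6 for KHSRPi#2, 0 to 1 between the guides and 1802 to 3328 for replicate 3, and 0 to 1 members in each of the first and last of these. In those fits the log2 fold change changed sign for CSTF2 (-0.03 to 0.10), CSTF2T (-0.05 to 0.03), NUDT21 (-0.01 to 0.11), PCF11 (-0.09 to 0.02) and SLBP (-0.01 to 0.07), none of them called. Rescaling also turned CPSF3 between the guides (-0.01, with quantile normalization too) and, for replicate 3, NUDT21 (-0.01) and CPSF4 (to just under 0), none called. Median-ratio rescaling put the median of all genes at -0.002, against 0.018, and CSTF3 in KHSRPi#2 was called with it (adjusted p = 0.0141), with quantile normalization (0.0218) and without a filter (0.0434). The cause of these changes was not tested. Depth in reads is unknown.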
